A study of Homo sapiens with 14 samples.

Results

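The ZSCAN, ZKSCAN and ZFP genes encode zinc finger proteins, and 46 of them lie on the autosomes among the 35805 gene rows of the expression table. They were taken by symbol, as every gene named ZSCAN, ZKSCAN or ZFP with a number, and comprise 22 ZSCAN, 7 ZKSCAN and 17 ZFP genes. ZFP36 was left out, because it encodes an RNA-binding protein with a different kind of zinc finger. No expression value entered this rule, but the group was chosen with earlier results of these data known.

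Most of these proteins bind DNA through a row of C2H2 zinc fingers, in which paired cysteines and histidines hold a zinc ion. ZSCAN proteins carry in addition a SCAN domain, through which they pair with each other. ZKSCAN proteins have a SCAN and a KRAB domain, and KRAB recruits the corepressor TRIM28 and through it the H3K9 methyltransferase SETDB1. ZFP genes are named after mouse counterparts, and several of them encode KRAB proteins. Many zinc finger genes of chromosome 19 are known to carry H3K9 trimethylation over the last exons that encode the fingers, and the HUSH complex is known to act on chromatin with this mark.

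K562, an established erythroleukaemia line, was the source of the RNA, which was sequenced after removal of ribosomal RNA. All groups carried dCas9-KRAB, an inactive Cas9 joined to a KRAB repressor domain, so the controls carry this KRAB protein too. The labels list 14 libraries, namely untransduced cells (2 libraries), cells with the control guide sgAAVS1 (3 libraries) and cells with guides against TASOR (2 libraries), TASOR2 (3 libraries), MPP8 (2 libraries) or PPHLN1, the gene for Periphilin (2 libraries). Transduced cells were taken at day 7, and each knockdown library had a guide of its own. AAVS1 is a site in an intron of PPP1R12C that is often used as a neutral target. TASOR, MPP8 and Periphilin are the subunits of HUSH. TASOR2 is the counterpart of TASOR in the related HUSH2 complex, which shares MPP8 and Periphilin with HUSH.

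The authors deposited 1 mean per group on a log2 scale, so no value has an SD over libraries and no test or p-value between groups could be made. Steps among low values showed that the TASOR2 mean holds 2 libraries. The lowest value of each group gave its average depth per library, if values are scaled in the usual way (log2 RPM). This average ran from 5857937 (TASOR2) to 7406968 reads (untransduced cells), and the depth of single libraries is not known. Log2 differences are given ± the half-width of their 95% counting interval, which holds the error of counting reads but not the spread between libraries or guides. To be called higher or lower, a gene needed a log2 difference of 1 or more, a counting interval that excluded 0 and a mean above 0 in the higher group. Of all genes, 16433 had at least 1 of the 6 means above 0 and were examined by this rule. The knockdowns left 6.56% (TASOR) to 40.8% (PPHLN1) of the targeted gene's sgAAVS1 level. All 10 markers of K562 cells had a mean above 0, as did 4 of 5 lymphoid, 1 of 4 epithelial, 2 of 4 fibroblast and 1 of 3 kidney markers. Summed levels were 1402 to 1676 RPM for the K562 list and, over the 6 groups, 34.1 to 49.1, 70.5 to 83.3, 55.4 to 82.2 and 87.2 to 103 RPM for the others. MS4A1, KRT5, KRT14, CDH1, PDGFRA, DCN, PAX2 and LHX1 had no mean above 0. In bulk RNA, fewer cells with a transcript and less transcript per cell cannot be told apart.

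Of the 46 members 34 passed the filter and 12 did not. Against sgAAVS1, 1 of the 34 was higher in the MPP8 knockdown and 1 in the PPHLN1 knockdown, and both times it was ZSCAN18. No member was called in the TASOR or the TASOR2 knockdown, and none was lower in any of the 4. Over all examined genes the rule called 1.65% higher in MPP8, 2.88% in PPHLN1, 1.95% in TASOR and 2.26% in TASOR2, so the members' counts are near what the table gives for genes in general. Genes called lower made up 0.341% in TASOR, 2.03% in TASOR2, 0.316% in MPP8 and 0.615% in PPHLN1. Untransduced cells had no member called against sgAAVS1, beside 1.38% of all genes higher and 0.237% lower. With a limit of 1.5-fold in place of 1 log2 unit, ZSCAN18 was also higher in TASOR and in untransduced cells, beside 5.33% and 3.24% of all genes, and ZSCAN2 was lower in TASOR2, beside 4.9%. With that limit ZSCAN18 was also higher in PPHLN1 against both controls, beside 2.39% of all genes, and ZFP90 joined ZSCAN2 among members lower in TASOR2 than in TASOR, beside 12.5%.

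The members' differences from sgAAVS1 were small and mostly positive, like those of all genes. Their median log2 difference was 0.21 in TASOR, 0.17 in TASOR2, 0.15 in MPP8, 0.21 in PPHLN1 and 0.13 in untransduced cells. The medians over all examined genes were 0.16, 0.07, 0.12, 0.17 and 0.05 in the same order. With every group centred on the median of all genes, the members' medians became 0.01, 0.08, -0.01, -0.01 and 0.06, so their direction in MPP8 and PPHLN1 depended on the scaling. In 26 of the 34 members all 4 knockdown means lay within 0.5 of the sgAAVS1 mean, beside 69.7% of all examined genes. The range of the 6 means had a median of 0.40 over the members and 0.42 over all examined genes. The sgAAVS1 mean was the lowest of the 6 in 19 members, beside 32.5% of all genes. Several differences from sgAAVS1 are therefore given beside those from untransduced cells, and those given against sgAAVS1 alone carry this limit.

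**Figure D1:**
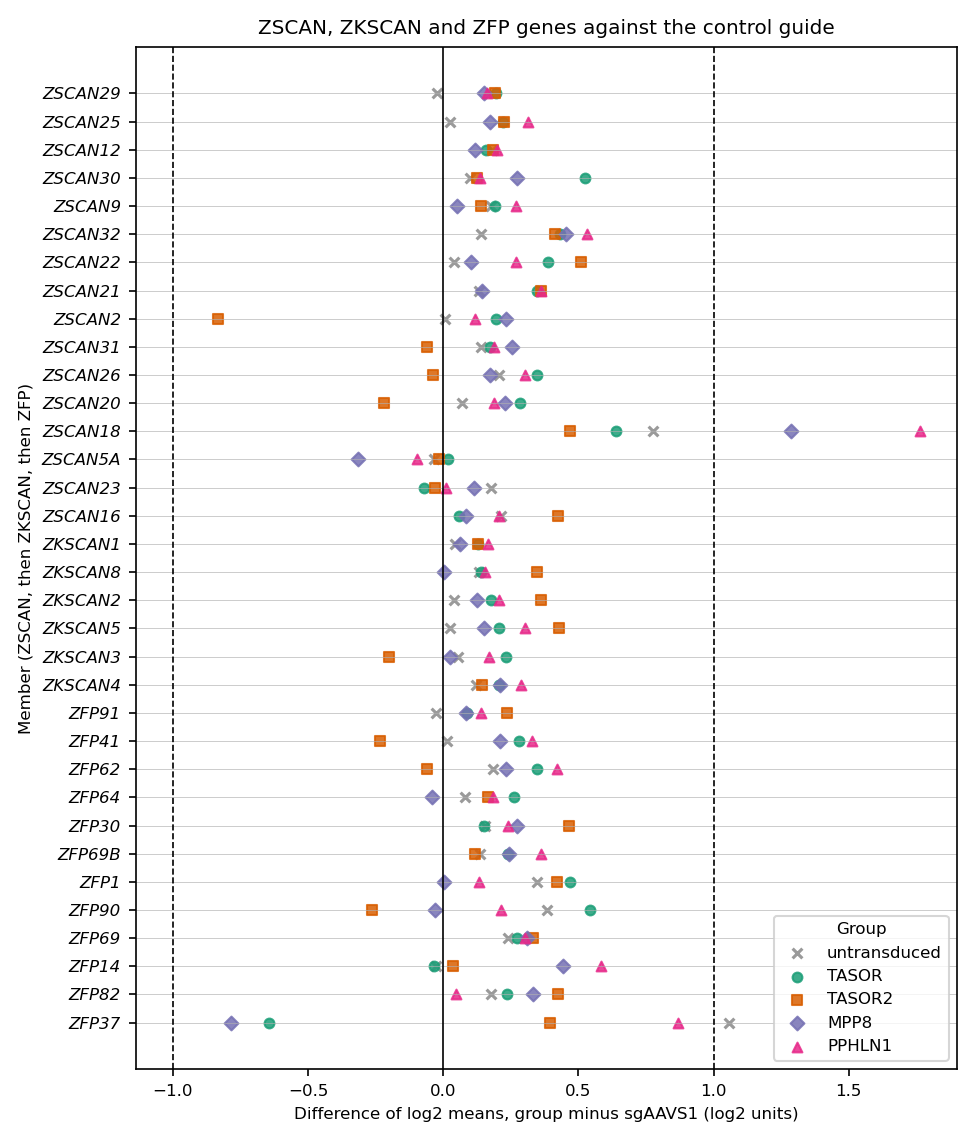
Difference of log2 means from sgAAVS1 (log2 units) for the 34 members that passed the filter, with a symbol for each knockdown and for untransduced cells and dashed lines at the size limit of 1. ZSCAN18 lies beyond the limit in MPP8 and PPHLN1, and ZFP37 in untransduced cells, where its counting interval included 0.

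The numbered ZNF genes, relatives of the members, had more genes far above sgAAVS1. Of 450 that passed the filter, 15 were higher in TASOR, 39 in TASOR2, 48 in MPP8 and 61 in PPHLN1, that is 3.33%, 8.67%, 10.7% and 13.6% beside the shares of all genes given above. Against untransduced cells 5, 18, 29 and 46 were higher, that is 1.11%, 4.0%, 6.44% and 10.2%, beside 1.28%, 1.37%, 1.25% and 1.56% of all genes, so in TASOR the share was not above that of all genes. Their median differences from sgAAVS1 were 0.27, 0.31, 0.23 and 0.32, and their largest 4.02, 3.33, 4.18 and 4.45. Each of these largest values is that of ZNF660, whose mean was -1.24 in sgAAVS1 but 2.23 in untransduced cells. The largest differences among the members were 0.64, 0.51, 1.29 and 1.76 in the same order. Against untransduced cells the largest were 2.02, 2.69, 3.45 and 3.40 among the ZNF genes. Among the members they were 0.43, 0.47, 0.51 and 0.99. Whether the members and the ZNF genes differ was not tested, and the 4 comparisons share the sgAAVS1 mean. Of 22 genes that encode SCAN proteins under other names none was called, with medians of 0.27, 0.01, 0.20 and 0.28. The 21 genes of the KRAB corepressor and H3K9 methylation machinery were not called either, with medians of 0.11, 0.00, 0.11 and 0.12.

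**Figure D2:**
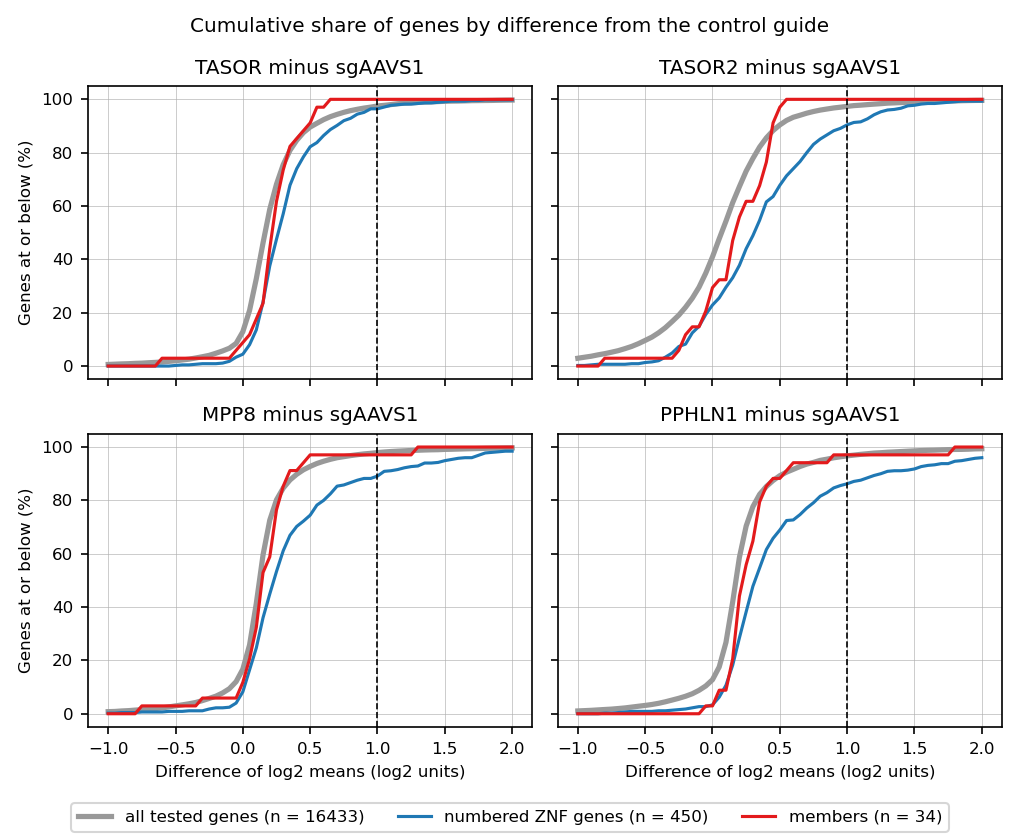
Cumulative share of genes (percent) by difference from sgAAVS1 (log2 units) in each knockdown, for all 16433 examined genes, 450 numbered ZNF genes and 34 members. The axis is cut at both ends: the member curves reach the top between 0.51 and 1.76, whereas the ZNF genes go on beyond the axis, to 3.33 to 4.45. These last values are those of ZNF660, which stood at -1.24 in sgAAVS1 but at 2.23 in untransduced cells.

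ZSCAN18, a SCAN zinc finger gene, was the member with the largest difference from sgAAVS1. It lies on the minus strand of chromosome 19 (58083838 to 58118427 on hg38) and is protein-coding in GENCODE 29. Its promoter is known to be methylated in several carcinomas. The bases before its 2 RefSeq starts are shown with those of ZSCAN1, its silent neighbour, and of ZSCAN4, another silent member of chromosome 19, because they differ in CpG, the site of DNA methylation. Capitals mark CpG, which reads the same on both strands, and each sequence is the 250 bases before the start from RefSeq on GRCh38.p14, 5′ to 3′ on the strand of the gene.
ZSCAN18 upstream start (chr19:58118405-58118654, minus strand): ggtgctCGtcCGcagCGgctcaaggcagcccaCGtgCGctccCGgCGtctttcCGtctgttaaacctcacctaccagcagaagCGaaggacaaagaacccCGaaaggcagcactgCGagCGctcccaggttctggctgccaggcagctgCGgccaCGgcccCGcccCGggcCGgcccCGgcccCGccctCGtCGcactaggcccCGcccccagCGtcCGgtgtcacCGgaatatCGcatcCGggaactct
ZSCAN18 downstream start (chr19:58098232-58098481, minus strand): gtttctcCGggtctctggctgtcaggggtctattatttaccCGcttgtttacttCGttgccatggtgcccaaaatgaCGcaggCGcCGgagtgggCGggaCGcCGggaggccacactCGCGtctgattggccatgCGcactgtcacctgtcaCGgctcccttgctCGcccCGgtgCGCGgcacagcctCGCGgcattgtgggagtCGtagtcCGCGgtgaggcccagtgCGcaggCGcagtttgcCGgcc
ZSCAN1 (chr19:58033775-58034024, plus strand): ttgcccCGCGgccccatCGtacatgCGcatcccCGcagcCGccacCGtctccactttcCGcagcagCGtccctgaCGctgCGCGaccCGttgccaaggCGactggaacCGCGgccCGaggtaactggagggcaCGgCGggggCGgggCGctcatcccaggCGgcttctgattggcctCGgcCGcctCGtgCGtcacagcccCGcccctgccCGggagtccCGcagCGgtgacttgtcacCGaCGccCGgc
ZSCAN4 (chr19:57668685-57668934, plus strand): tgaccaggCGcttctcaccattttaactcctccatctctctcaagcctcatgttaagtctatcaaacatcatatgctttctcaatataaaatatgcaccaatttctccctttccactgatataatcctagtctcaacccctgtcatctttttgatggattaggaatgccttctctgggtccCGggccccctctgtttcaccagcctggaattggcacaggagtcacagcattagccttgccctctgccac

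These windows held 27 and 25 CpG at the ZSCAN18 starts, 33 at ZSCAN1 and 2 at ZSCAN4. Over all 35116 RefSeq promoters, cut to the same length, the median was 11 CpG and 93.9% held at least 1. Of those promoters 82.3% and 78.4% had fewer CpG than the ZSCAN18 starts, 91.9% fewer than ZSCAN1 and 14.7% fewer than ZSCAN4. Of the 46 members 37 had a promoter in the table. The highest CpG count per gene ran from 7 to 37 (median 22) in 29 members that passed the filter and from 2 to 33 (median 19) in 8 that did not, so the ranges overlap. Methylation was not measured in these samples.

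The 6 means of ZSCAN18 were 4.30 in untransduced cells, 3.53 in sgAAVS1, 4.17 in TASOR, 4.0 in TASOR2, 4.82 in MPP8 and 5.29 in PPHLN1. PPHLN1 and MPP8 are the high groups and sgAAVS1 is the low one, with TASOR and TASOR2 below untransduced cells. Against sgAAVS1 ZSCAN18 was 1.76 ± 0.23 higher in PPHLN1 (3.39-fold) and 1.29 ± 0.25 higher in MPP8 (2.44-fold). In TASOR and TASOR2 it stood at 0.64 ± 0.26 and 0.47 ± 0.28, short of the rule, and in untransduced cells at 0.78 ± 0.25.

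The choice of control decided these calls. Against untransduced cells ZSCAN18 differed by 0.99 ± 0.21 in PPHLN1 (1.98-fold) and by 0.51 ± 0.23 in MPP8 (1.43-fold), and neither reached the limit. The same differences were -0.13 ± 0.24 in TASOR and -0.31 ± 0.26 in TASOR2. Against untransduced cells no member was called higher, beside 1.28% of all genes in TASOR, 1.37% in TASOR2, 1.25% in MPP8 and 1.56% in PPHLN1. No member was called higher against both controls in any knockdown, where the rule called 0.536% of all genes in TASOR, 0.998% in TASOR2, 0.706% in MPP8 and 1.19% in PPHLN1. PPHLN1 lay 0.47 ± 0.20 above MPP8 at ZSCAN18, and set directly against MPP8 no member was called, beside 0.864% of all genes higher and 0.59% lower.

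**Figure D3:**
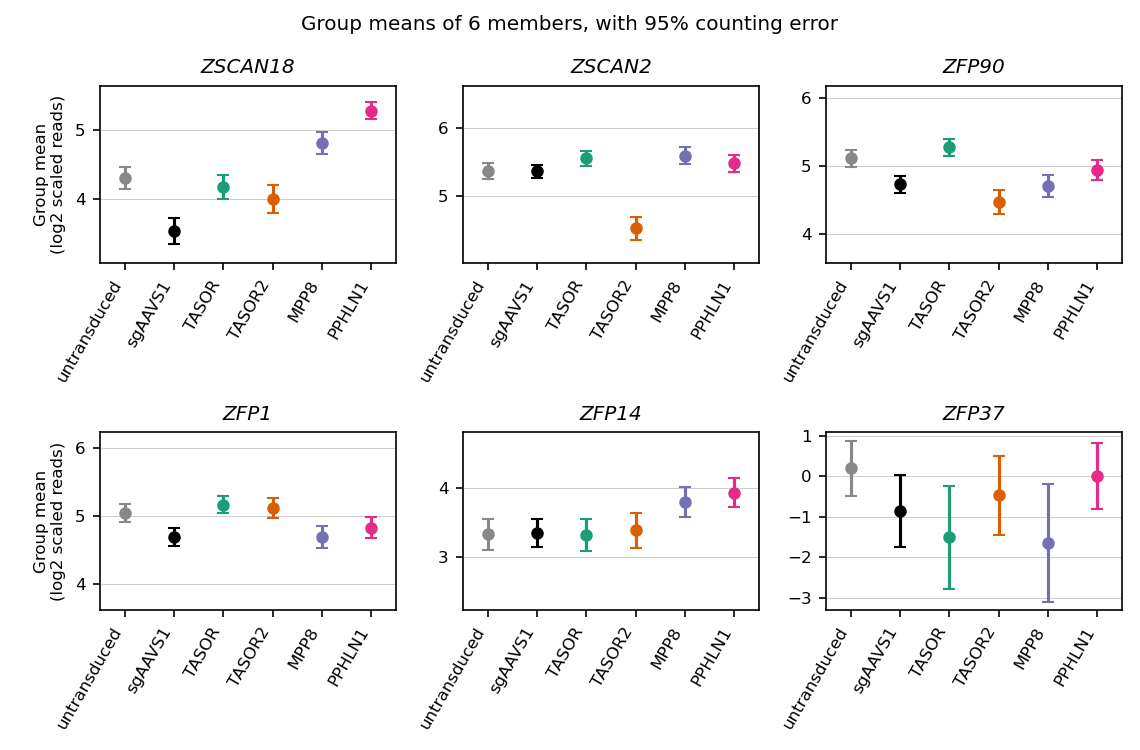
Group means (log2 scale) of 6 members in the 6 groups, with the 95% counting error of each mean as bars. ZSCAN18 is highest in PPHLN1 (5.29) and MPP8 (4.82), ZSCAN2 is lowest in TASOR2 (4.53), and ZFP37 has wide bars at means from -1.64 to 0.20.

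Several zinc finger genes around ZSCAN18 were higher in the same knockdowns. Of 13 other examined genes that start within 200 kb of it, 5 were higher than in sgAAVS1 in PPHLN1, 4 in MPP8, 2 in TASOR2 and 1 in TASOR, beside 2.88%, 1.65%, 2.26% and 1.95% of all genes. Against untransduced cells the counts were 4, 3, 0 and 0, beside 1.56%, 1.25%, 1.37% and 1.28%. Toward the centromere, ZNF418 was 1.79 ± 0.35 higher in PPHLN1 than in sgAAVS1 and 1.64 ± 0.36 higher than in untransduced cells. The KRAB zinc finger gene ZNF606 was 2.94 ± 0.88 and 1.57 ± 0.67 higher against the same controls. It was called in all 4 knockdowns against sgAAVS1, its lowest group, but in TASOR and TASOR2 it stood at 0.42 ± 0.75 and -0.16 ± 0.87 against untransduced cells. ZNF256, another KRAB gene, was 3.03 ± 1.01 and 2.42 ± 0.93 higher in PPHLN1. It passed the filter through TASOR2, MPP8 and PPHLN1 alone, so its differences from both controls are in part built into the filter. It is counted in PPHLN1 and MPP8 against both controls. The transcript CTD-2368P22.1 is counted among the 5 and also among the 4 against untransduced cells. It passed through PPHLN1 alone, so its differences there (2.37 ± 1.58 and 3.18 ± 2.19) are built into the filter. Toward the telomere ZNF329, which starts 36.7 kb from ZSCAN18, was 1.15 ± 0.23 higher in PPHLN1 than in sgAAVS1 but stood at 0.74 ± 0.23 against untransduced cells, short of the rule. Beyond it none of the 8 remaining genes was called, and ZNF274 stood at 0.37 ± 0.08, ZNF544 at 0.34 ± 0.11 and ZNF8 at 0.26 ± 0.08. ZNF274 is known to bring SETDB1 to the 3′ ends of zinc finger genes. ZSCAN18 overlaps ZNF135 on the other strand, whose highest mean was -1.35, and the sources used here do not say whether strand was used in counting.

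**Figure D4:**
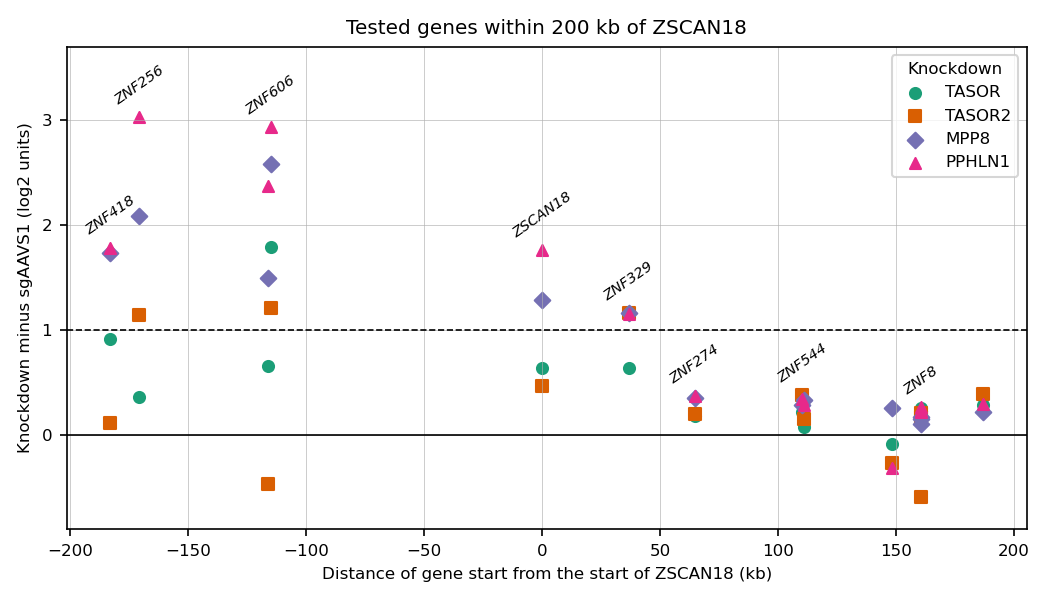
Difference from sgAAVS1 (log2 units) in each knockdown for the examined genes within 200 kb of ZSCAN18, by distance of their start from that of ZSCAN18 (kb). From ZNF418 to ZNF329 the PPHLN1 differences run from 1.15 to 3.03, and from ZNF274 on they run from -0.32 to 0.37. Those of ZNF256 (3.03) and CTD-2368P22.1 are wholly or in part built into the filter.

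ZSCAN2, a SCAN zinc finger gene on the plus strand of chromosome 15 (84600986 to 84627796), was low in TASOR2. Its means were 5.37 in untransduced cells, 5.36 in sgAAVS1, 5.56 in TASOR, 4.53 in TASOR2, 5.6 in MPP8 and 5.48 in PPHLN1. TASOR2 is the single low group, and the other 5 means lie close together. Against sgAAVS1 the difference was -0.83 ± 0.20, the nearest to the limit of any member in that knockdown, and against untransduced cells it was -0.84 ± 0.21.

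Set directly against TASOR, ZSCAN2 was lower in TASOR2 (-1.03 ± 0.20), and it was the 1 member called there, beside 5.23% of all genes lower and 1.39% higher. The call was lost with median centring (-0.92), quantile normalization (-0.85) or removal of the trend on GC content (-0.93). Over genes with a mean above 5 the TASOR2 minus TASOR difference moved with the GC content of the transcript (rho of -0.71 by Spearman over 9378 genes, all from the same libraries). Over the 34 examined members rho was -0.34. ZSCAN2 has 53.2% GC against a median of 46.1% over these members, and whether GC content bears on its value was not tested. ZFP90 had the next lowest value among well expressed members in this comparison, at -0.81 ± 0.21, followed by ZFP41 at -0.51 ± 0.10 and ZSCAN20 at -0.50 ± 0.25.

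The other ZSCAN genes stayed nearer to their controls. Over all 16 the median differences from sgAAVS1 were 0.21 in TASOR, 0.16 in TASOR2, 0.16 in MPP8 and 0.20 in PPHLN1. Those from untransduced cells were 0.16, 0.01, 0.09 and 0.10 in the same order. ZSCAN32 had means of 5.80 in untransduced cells, 5.66 in sgAAVS1, 6.09 in TASOR, 6.07 in TASOR2, 6.11 in MPP8 and 6.19 in PPHLN1, so all 4 knockdowns were above both controls, by at most 0.53 ± 0.13. ZSCAN30 stood at 0.53 ± 0.11 in TASOR, against 0.12 to 0.27 in the other knockdowns. ZSCAN22, on chromosome 19 beyond the window around ZSCAN18, stood at 0.51 ± 0.15 in TASOR2 and 0.10 ± 0.16 in MPP8.

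ZSCAN21, known for binding at the alpha-synuclein gene, had differences from 0.14 in MPP8 to 0.36 in PPHLN1. ZSCAN5A was the 1 member whose interval lay below 0 in MPP8 (-0.32 ± 0.25). It belongs to a cluster of near copies, 10.02% of its 31-base words occur in other genes, and it overlaps other gene rows on both strands, so its counts are uncertain. ZSCAN16 and ZSCAN23 were weakly expressed, with means from 0.67 to 1.09 and from 1.20 to 1.45, and each of their intervals included 0.

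The 6 examined ZKSCAN genes had narrow ranges of differences from sgAAVS1, from 0.13 to 0.23 in TASOR, -0.20 to 0.43 in TASOR2, 0.00 to 0.21 in MPP8 and 0.15 to 0.30 in PPHLN1. ZKSCAN1, whose gene is also known for a circular RNA, had the highest means of all members, 8.48 in untransduced cells, 8.43 in sgAAVS1, 8.56 in TASOR, 8.56 in TASOR2, 8.49 in MPP8 and 8.60 in PPHLN1. These 6 means are nearly level. ZKSCAN8 had 8.04, 7.91, 8.04, 8.25, 7.91 and 8.06 in the same order, with TASOR2 as the high group (0.35 ± 0.06 above sgAAVS1). The extremes in TASOR2 were ZKSCAN5 at 0.43 ± 0.09 and ZKSCAN3, known as a repressor of autophagy genes, at -0.20 ± 0.12. ZKSCAN3 and ZKSCAN4 share most with each other, and 14.2% and 13.4% of their 31-base words occur in other genes. ZKSCAN3 also overlaps ZSCAN31 on the other strand.

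Among the 12 examined ZFP genes the median differences from sgAAVS1 were 0.25 in TASOR, 0.20 in TASOR2, 0.22 in MPP8 and 0.27 in PPHLN1. Those from untransduced cells were 0.11, 0.07, 0.09 and 0.09 in the same order. ZFP14, a KRAB zinc finger gene of chromosome 19, had means of 3.32 in untransduced cells, 3.35 in sgAAVS1, 3.32 in TASOR, 3.39 in TASOR2, 3.80 in MPP8 and 3.94 in PPHLN1. MPP8 and PPHLN1 are again the high groups, and here both controls are level. The differences from sgAAVS1 were 0.44 ± 0.30 and 0.58 ± 0.29, and those from untransduced cells 0.47 ± 0.32 and 0.61 ± 0.31, all short of the rule. ZFP82 and ZFP30, KRAB genes of the same chromosome, had their highest means in TASOR2 instead, at 0.43 ± 0.34 and 0.46 ± 0.16 above sgAAVS1.

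ZFP90, a KRAB zinc finger gene of chromosome 16, had means of 5.11 in untransduced cells, 4.73 in sgAAVS1, 5.27 in TASOR, 4.47 in TASOR2, 4.70 in MPP8 and 4.94 in PPHLN1. ZFP1, on the same chromosome, had 5.04, 4.69, 5.16, 5.12, 4.70 and 4.83 in the same order. Both are low in sgAAVS1 and MPP8 and high in TASOR and untransduced cells, and they part in TASOR2. In TASOR they stood 0.54 ± 0.18 and 0.47 ± 0.18 above sgAAVS1, but 0.16 ± 0.17 and 0.12 ± 0.18 above untransduced cells.

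ZFP37 had the widest range of the examined ZFP genes on the fewest reads. Its means were 0.20 in untransduced cells, -0.86 in sgAAVS1, -1.5 in TASOR, -0.47 in TASOR2, -1.64 in MPP8 and 0.01 in PPHLN1, that is from 1.90 to 8.49 reads per library. Untransduced cells and PPHLN1 are the high groups, and ZFP37 passed the filter through these groups alone, so a difference from the low groups is built into its choice. It also overlaps ZNF883 on the same strand, whose means ran from 2.32 to 3.02, so the counts of ZFP37 are uncertain. Untransduced cells lay 1.06 ± 1.12 above sgAAVS1 and PPHLN1 lay 1.65 ± 1.67 above MPP8, and both intervals included 0. With the GC trend removed the second became 1.67 and was called, beside 0.882% of all genes, a shift at the edge of its interval in a gene that passed the filter through PPHLN1. Against untransduced cells ZFP37 was lower in TASOR (-1.70 ± 1.45) and MPP8 (-1.84 ± 1.61), beside 0.84% and 1.02% of all genes lower. No other member was called lower than in untransduced cells, and none was called in TASOR2 or PPHLN1, beside 3.26% and 0.822% of all genes.

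The remaining ZFP genes had no call in any comparison. ZFP91, a ubiquitin ligase known to be degraded under thalidomide-type drugs, had means of 7.76 in untransduced cells, 7.79 in sgAAVS1, 7.88 in TASOR, 8.02 in TASOR2, 7.87 in MPP8 and 7.93 in PPHLN1. TASOR2 is its high group, by 0.23 ± 0.07 over sgAAVS1. ZFP41 was lowest in TASOR2, at -0.23 ± 0.10, and highest in PPHLN1, at 0.33 ± 0.08. ZFP62 stood at -0.06 ± 0.12 in TASOR2, an interval that includes 0, and at 0.42 ± 0.11 in PPHLN1. ZFP64, known to drive MLL expression in leukaemia, had differences from -0.04 in MPP8 to 0.26 in TASOR. ZFP69 stood between 0.27 and 0.33 in the 4 knockdowns, and ZFP69B between 0.12 and 0.36. The untransduced means of ZFP62, ZFP69 and ZFP69B (6.44, 4.65 and 5.25) also lay above those in sgAAVS1 (6.25, 4.41 and 5.11).

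The 12 members that did not pass the filter had no mean above 0 in any group. ZFP3, ZSCAN1, ZSCAN5C and ZSCAN5D had no reads in all 6 groups, and ZSCAN4, which marks the earliest embryonic genome activation, had none in 4. A group without reads allows up to 3 counts, which is a log2 value of -2.63 in sgAAVS1 and -1.97 in TASOR2. ZFP42 (REX1), a marker of pluripotent cells, came nearest to the filter, with -0.80 in untransduced cells, -0.997 in sgAAVS1, -0.39 in TASOR, -0.97 in TASOR2, -2.64 in MPP8 and -0.58 in PPHLN1. Its lowest mean, in MPP8, lies next to the value of a gene without reads there (-2.72). No counting interval is given here for members below the filter, so this is not read as a difference. ZFP2, ZSCAN5B and ZFP57, a guardian of imprinted methylation, had their highest means in TASOR2, at -1.26, -1.26 and -1.63. These rest on few reads. TASOR2 is the shallowest group, and a gene without reads also has its highest value there (-2.70). ZSCAN10, a factor of embryonic stem cells, ZKSCAN7 and ZFP28 stayed at or below -2.08.

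By position, chromosome 19 held 12 members, of which 6 passed the filter, and chromosome 6 held 10, of which 9 passed. The chromosome 6 genes form a row next to the major histocompatibility complex, and their differences from sgAAVS1 stayed between -0.20 and 0.42 in all 4 knockdowns. The medians on chromosome 19 were 0.19 in TASOR, 0.45 in TASOR2, 0.30 in MPP8 and 0.25 in PPHLN1. On chromosome 6 they were 0.17, 0.14, 0.11 and 0.20, and on the other chromosomes 0.26, 0.19, 0.15 and 0.21. Against untransduced cells the medians on chromosome 19 were lower, at 0.02, 0.16, 0.14 and 0.16 in the same order. They were 0.02, -0.04, -0.06 and 0.05 on chromosome 6, and 0.18, 0.08, 0.11 and 0.16 on the other chromosomes. With 6 and 9 genes these medians rest on few values, and the difference between chromosomes was not tested.

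The members share a gene structure. In all 34 that passed the filter the longest exon of the transcript used was the last one, which ran from 653 bases in ZSCAN16 to 8385 in ZKSCAN1. ZSCAN18 has 7 exons and a last exon of 1541 bases, shorter than the median of 2957.5. Across the 34 members Spearman's rho between the length of this exon and the difference from sgAAVS1 was -0.29 in TASOR, -0.05 in TASOR2, -0.28 in MPP8 and -0.16 in PPHLN1. Against untransduced cells rho was -0.002, 0.07, -0.06 and -0.05 in the same order. For untransduced cells against sgAAVS1 it was -0.27. These are descriptions over genes that share the same libraries, and a relation to exon length was not tested.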

How the data were processed

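RNA libraries of 6 groups of K562 cells were made after removal of ribosomal RNA with a directional kit, per the labels. Reads were processed with cutadapt and Bowtie2 on hg38, per the submitters' processing notes, while no label or header names the read counter or says whether it used strand. The authors deposited the mean log2 value of untransduced cells and, for the other 5 groups, a column found from the values to be the quotient of the group's and the untransduced mean log2 value. Multiplying quotient and untransduced value gave the group mean, less exactly where the latter is near 0. All low values tested (100% in each column, tolerance 0.001) were averages of the log2 of whole reads (0 taken as 0.9) over 3 libraries in sgAAVS1 and 2 in each other group. The labels do not say which 2 of the 3 TASOR2 libraries were used.

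The table holds group means, so the planned rule of size took the place of a test. Counting intervals (95%) treat reads as Poisson counts, and their depth assumes that values are log2 RPM. After 87 duplicate rows were dropped, genes with at least 1 mean above 0 were examined. Members to be described in full were those called, the 3 largest uncalled differences, the 3 highest means and those nearest the limit. Other members were named by role, in part after their values were seen. The members and lists were chosen with earlier results of these data known. Gene structure came from GENCODE 29 and promoters from RefSeq. Python 3.11.15, pandas 2.3.3, numpy 2.4.6 and matplotlib 3.10.9 were used, and the calculation was tested on simulated data. Alternatives were 2 scalings, another control, no filter, higher limits, a 1.5-fold size limit and removal of the GC trend.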

Additional observations from a re-analysis of the deposited data

How the results depend on the processing

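Counting error limits genes with few reads, ZFP37 above all, and the spread between libraries was not measured. No paired analysis was possible because the table holds group means, and leaving out single libraries was not run for the same reason. With median centring the members' median differences from sgAAVS1 were 0.0081 in TASOR, 0.081 in TASOR2, -0.0072 in MPP8, -0.0083 in PPHLN1 and 0.064 in untransduced cells, and with quantile normalization 0.050, 0.080, 0.020, 0.033 and 0.048. Against untransduced cells the medians were 0.12 in TASOR, 0.044 in TASOR2, 0.076 in MPP8 and 0.11 in PPHLN1. The median was 0.061 in untransduced cells with no filter and 0.13 in TASOR2 with the GC trend removed. The members lower in TASOR2 than in TASOR numbered 0 with median centring, quantile normalization or the GC trend removed, and 2 (ZFP90 and ZSCAN2) with a 1.5-fold limit, beside 12.5% of all genes. Against untransduced cells 0 members were called higher in MPP8 and 0 in PPHLN1, and 1 (ZFP37) was called lower in TASOR and 1 in MPP8. With the 1.5-fold limit 1 member (ZSCAN18) was higher in TASOR, beside 5.33% of all genes, 1 (ZSCAN18) in untransduced cells, beside 3.24%, and 1 (ZSCAN2) was lower in TASOR2, beside 4.9%. With that limit 1 member (ZSCAN18) was higher in PPHLN1 against both controls. With the GC trend removed 1 member (ZFP37, 1.67 against 1.65 before) was higher in PPHLN1 than in MPP8, beside 0.882% of all genes, and it passed the filter through PPHLN1. The causes of these changes were not tested. Of the counts and medians under all alternatives, 116 stayed within 1.5 times the count or within the counting error of the median and 29 did not. Of the named members' values 3 were called and 53 were not. The called values kept their call in 15 of 20 values under the alternatives and lost it in 5, and the uncalled ones stayed uncalled in 334 of 341 and gained a call in 7.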

Other observations

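ZFP92, a zinc finger gene of the X chromosome and so outside the members, had means of 3.37 in untransduced cells, 3.13 in sgAAVS1, 3.69 in TASOR, 3.23 in TASOR2, 3.24 in MPP8 and 3.40 in PPHLN1. TASOR was its high group, at 0.56 ± 0.31 above sgAAVS1, and it was not called in any knockdown. ZFP36, which encodes an RNA-binding protein, stood at 0.25 ± 0.14 in TASOR and -0.15 ± 0.16 in TASOR2 and was not called either. Transcript GC content moved with differences between groups beyond TASOR2 against TASOR. Across 9378 genes with a mean above 5, Spearman's rho was 0.71 for PPHLN1 against untransduced cells and 0.34 for PPHLN1 against sgAAVS1. It was -0.54 for untransduced cells against sgAAVS1. For TASOR2 it was -0.70 against sgAAVS1 and -0.50 against untransduced cells. Over the 34 examined members alone the 2 TASOR2 values were -0.02 and 0.04. Over the same members rho was 0.54 for PPHLN1 against untransduced cells and 0.19 for PPHLN1 against sgAAVS1. For untransduced cells against sgAAVS1 it was -0.39. These are descriptions over genes that share the same libraries. ZSCAN18, with 59.3% GC in its transcript, kept its calls against sgAAVS1 in MPP8 and PPHLN1 with the GC trend removed.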
